A study of Mus musculus with 2 samples.

Results

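The genes described here encode the proteasome, its assembly chaperones, its activators and its immunoproteasome variant. They were chosen by symbol alone, as every gene whose symbol is Psm followed by a letter from a to g and digits, and 48 of the 31053 genes in the deposited table met that rule. Their transcripts were counted in CD45+ cells of subcutaneous MTC-Q1 tumours, a mouse oral cancer line, that were either wild type or knocked out for the microRNA miR-21 and were grown in C57BL/6 mice. All tumours had grown for 2 weeks, and both groups received cisplatin at 5 mg/kg and were collected 72 h later, so no group without the drug enters. Each of the 2 groups is 1 library of single cells sequenced from transcript 3′ ends. The sources used here do not say whether 1 or several animals were pooled, nor whether the knockout line is 1 clone. Library 1 and library 2 are named by the number at the end of each cell barcode, which no source ties to a genotype. The libraries are therefore shown side by side, and no difference between them can be read as an effect of miR-21. With 1 library a group there is no replicate and no test. Every interval below is an exact 95% interval that covers counting error only.

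The proteasome degrades proteins that carry chains of ubiquitin. Its barrel, the 20S particle, is a stack of alpha and beta rings, and the beta rings hold the proteolytic subunits Psmb6, Psmb7 and Psmb5. The 19S cap binds ubiquitin, unfolds the substrate with a ring of ATPases and feeds it in. In leukocytes, and elsewhere under interferon gamma, Psmb9, Psmb10 and Psmb8 replace Psmb6, Psmb7 and Psmb5 in newly built barrels. The resulting immunoproteasome, often with the 11S cap of Psme1 and Psme2, makes many of the peptides that MHC class I molecules present to CD8 T cells.

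Library 1 held 5320 barcodes and library 2 held 7194, and 4977 and 6740 cells were kept. The libraries differed in depth, with a median of 7169 UMIs (distinct transcript molecules) a barcode in library 1 and 15247.5 in library 2. They also differed in mitochondrial UMIs, at a median of 3.98% and 2.09%. Proteasome genes held 0.542% of all UMIs of kept cells in library 1 and 0.900% in library 2. The 2 libraries shared 8 barcode sequences. Markers that contain no proteasome gene placed 71.2% and 78.5% of the kept cells in 16 cell types. The libraries differed in makeup. Naive-type CD4 and CD8 T cells numbered 825 and 1227 in library 1 but 7 and 42 in library 2, and macrophages numbered 343 and 1950. Some cells were not leukocytes by their markers. Besides collagen-rich fibroblasts, 434 cells of library 2 and 40 of library 1 had little Ptprc, the gene of CD45, at 5.59 and 6.47 CPM, against 448 CPM in macrophages of library 2. A level in CPM is the UMIs of a gene per 1000000 UMIs of the summed cells. They are called Ptprc-low collagen-poor cells and are given no cell type name. In library 2 their 7 epithelial or tumour-cell markers summed to 2.33 CPM, with 4 of the 7 at 0, and their 3 leukocyte markers to 32.2 CPM against 2673 CPM in macrophages. Their 6 fibroblast markers summed to 2581 CPM, against 29508 CPM in the fibroblasts. The gate required low sums of the leukocyte and fibroblast markers, so these low values and the low Ptprc were set by it. The 6 effector CD8 T cell markers, which include Ccl5, summed to 3537 CPM in these cells. Levels are given for types with at least 50 cells in the library unless a cell number says otherwise.

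Short stretches at the starts of Psmb8, Psmb10, Psmb5, Psmb6 and Psme1 are shown so that the motif matches of single genes can be seen. The sequences are from RefSeq (GRCm38.p6), which had a promoter entry for 40 of the 48 genes. The sites of Psmb8 and of Psme1 are short windows around 1 match, and the other sequences stop where the annotated first exon begins. Capitals mark the match to TTCNNNGAA in Psmb8, to GAAA followed by any 2 bases and GAAA again (on the opposite strand) in Psme1 and to TGACNNNGC in Psmb5 and Psmb6. Psmb10 had no match to any of these motifs. Psmb9 is not shown and also had none of these 3, and Psmb7 is not shown.
Psmb8, chr17:34198090-34198114, plus strand: ctccgctgTTCCCAGAAgatgcccc
Psme1, chr14:55578495-55578520, plus strand: agctgtgcTTTCGCTTTCccttcccg
Psmb10, chr8:105938445-105938642, minus strand: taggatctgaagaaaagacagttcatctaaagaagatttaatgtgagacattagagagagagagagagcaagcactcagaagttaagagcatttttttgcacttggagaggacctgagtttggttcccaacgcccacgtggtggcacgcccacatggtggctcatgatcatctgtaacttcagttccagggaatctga
Psmb5, chr14:54618023-54618245, minus strand: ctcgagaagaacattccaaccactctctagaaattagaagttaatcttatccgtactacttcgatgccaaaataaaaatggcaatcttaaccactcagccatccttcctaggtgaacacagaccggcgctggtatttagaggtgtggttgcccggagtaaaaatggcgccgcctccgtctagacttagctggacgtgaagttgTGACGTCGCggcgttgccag
Psmb6, chr11:70525107-70525356, plus strand: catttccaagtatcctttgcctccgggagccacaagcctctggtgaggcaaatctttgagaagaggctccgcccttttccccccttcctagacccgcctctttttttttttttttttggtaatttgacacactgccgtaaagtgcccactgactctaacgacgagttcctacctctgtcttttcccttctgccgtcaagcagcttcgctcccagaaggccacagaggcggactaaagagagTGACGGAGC

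Matches were sought on both strands in the 250 bases before each RefSeq start. TTCNNNGAA, the letters of an interferon gamma activated site, occurred in 7.02% of 32851 promoters, and among proteasome genes in those of Psmb8 and Psmg1. The Psmb8 match begins 97 bases before the RefSeq start and lies inside an exon of a longer annotated Psmb8 transcript. The pair of GAAA, the core of an interferon-stimulated response element, occurred in 2.98% of promoters and in those of Psmb3, Psmd4 and Psmd9. The Psme1 match shown lies just after the start, outside the bases counted here. In the longer window that includes it, 3.44% of promoters and 5 proteasome genes had a match, with Psme1 and Psmg4 added. TGACNNNGC, the core of the antioxidant response element that NRF1 and NRF2 bind, occurred in 10.2% of promoters and in 5 of the 40 proteasome genes, namely Psmb5, Psmb6, Psmc6, Psmd9 and Psmd12. GGGCGG, a GC box, occurred in 32.7% of promoters and in 22 of the 40 genes. CCAAT occurred in 33.8% and in 14. A match is a description of letters and was not tested as a binding site. Psmb9 faces Tap1, a peptide transporter gene of the class I pathway, on chromosome 17, with 225 bases between the starts. Psmb9 and Tap1 share 212 exon bases on opposite strands, and Psmb8 shares 498 with the annotated gene Gm20496. The sources used here do not state a strand setting for the counting. A part of these counts could therefore belong to the opposite gene.

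Immunoproteasome transcripts made up most of the catalytic-subunit UMIs in every leukocyte type. The share of Psmb8, Psmb9 and Psmb10 among the UMIs of all 6 catalytic genes ran from 68.9% to 76.3% over the 9 types of library 1 and from 64.3% to 78.6% over the 10 leukocyte types of library 2. A share compares UMIs of different genes, whose 3′ ends may be captured unequally, so the differences between cell types carry the description and not the distance from an even split. Migratory dendritic cells (DC), which carry antigen to lymph nodes, had the highest share in library 2, at 78.6% (95% interval 76.8 to 80.4, exact binomial, 52 cells). The cross-presenting cDC1 followed at 75.2% (73.8 to 76.5), although Psmb10 made up only 56.3% of Psmb10 and Psmb7 UMIs there. Below them regulatory T cells and effector-type CD8 T cells stood at 74.2% each, other T cells at 73.1%, and monocytes and gamma-delta T cells at 72.0% each. cDC2 stood at 69.8%. Neighbours in the order from cDC1 down to cDC2 had overlapping intervals. Macrophages at 65.6% (65.3 to 66.0) and NK cells at 64.3% (63.7 to 64.8) came next and were clear of their neighbours. Fibroblasts, at 47.2% (44.9 to 49.5), and the Ptprc-low collagen-poor cells, at 23.5% (23.0 to 23.9), came last. In library 1 the order ran from other T cells at 76.3%, regulatory T cells at 75.5%, monocytes at 75.0% and effector-type CD8 T cells at 73.8% to macrophages at 71.9%. Naive-type CD8 T cells at 71.6%, naive-type CD4 T cells at 70.3%, B cells at 69.0% and NK cells at 68.9% closed it. No 2 neighbours in library 1 had intervals clear of each other.

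**Figure D1:**
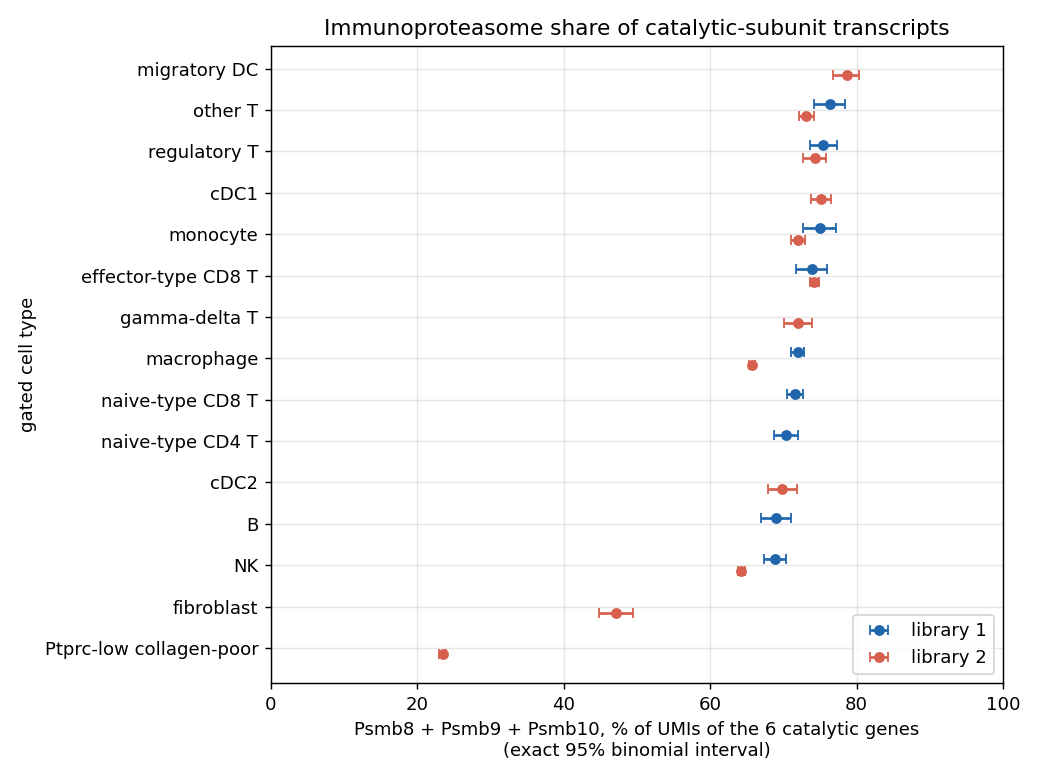
Share of Psmb8, Psmb9 and Psmb10 among the UMIs of the 6 catalytic genes (x axis, %) in each gated cell type (y axis) with at least 50 cells, for library 1 (blue) and library 2 (red). Points are shares of summed UMIs and bars are exact 95% binomial intervals. Leukocyte types lie between 64.3% and 78.6%, fibroblasts at 47.2% and Ptprc-low collagen-poor cells at 23.5%.

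Macrophages and NK cells had the clearest difference in this share between the libraries. It was 71.9% (71.0 to 72.8) in macrophages of library 1 against 65.6% in library 2, and 68.9% (67.3 to 70.4) against 64.3% in NK cells. The share was higher in library 1 in 5 of the 6 types with at least 50 cells in both, the exception being effector-type CD8 T cells at 73.8% and 74.2%. Free RNA, estimated from marker transcripts a type should lack, came to 0.899% and 3.17% of UMIs in macrophages of library 1 and library 2. With that RNA subtracted, the macrophage shares were 71.9% and 65.8%.

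The 3 immunoproteasome subunits did not vary alike, and their order by range differed between the libraries. Psmb8, the chymotrypsin-like subunit that replaces Psmb5, was the most variable of them in library 2. Its level in library 2 was 1806 CPM in cDC1, 1481 CPM in migratory DC and 1272 CPM in regulatory T cells. The middle of the range held effector-type CD8 T cells at 1146 CPM, other T cells at 1094 CPM, gamma-delta T cells at 969.7 CPM, cDC2 at 886 CPM and monocytes at 829 CPM. NK cells at 753 CPM and macrophages at 607 CPM were the lowest leukocytes, fibroblasts had 118 CPM and Ptprc-low collagen-poor cells 21.1 CPM. Psmb8 thus differed 85.6-fold between its highest and lowest type of library 2, and it was higher in every leukocyte type of that library than in both non-leukocyte types. The 37 fibroblasts of library 1 had 225 CPM (204 to 248), near the 254 CPM (241 to 269) of naive-type CD4 T cells there. In library 1, which has no fibroblast or Ptprc-low type with 50 cells, Psmb8 ranged 3.08-fold, from 254 CPM in naive-type CD4 T cells, 298 CPM in naive-type CD8 T cells and 326 CPM in B cells to 785 CPM in other T cells.

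Psmb9, the subunit that replaces Psmb6, followed a like order. It was highest in cDC1 of library 2, at 686 CPM, and in migratory DC, at 547 CPM. T cells, NK cells, cDC2, monocytes and macrophages of library 2 lay between 207 CPM and 384 CPM, fibroblasts had 67.5 CPM and Ptprc-low collagen-poor cells 36.6 CPM. Psmb10, which replaces Psmb7, varied by 1.74-fold over the types of library 2 with at least 50 cells, against 18.7-fold for Psmb9. Over the 9 types of library 1 the range of Psmb10 was instead the widest of the 3, at 4.21-fold (68.8 CPM in naive-type CD4 T cells to 289.7 CPM in monocytes), against 3.92-fold for Psmb9. The lowest level of Psmb10 in library 2 was 204 CPM in NK cells and the highest 354 CPM in monocytes, and the Ptprc-low collagen-poor cells, at 218 CPM, lay inside that range. The shares by pair in the Ptprc-low cells differed likewise. Psmb8 made up 6.70% of Psmb8 and Psmb5 UMIs in the Ptprc-low collagen-poor cells of library 2, Psmb9 made up 7.32% of its pair, and Psmb10 made up 60.5% of its pair. In macrophages of library 2 the corresponding shares were 76.4%, 43.2% and 71.4%. In cDC1 of library 2 they were 84.8%, 63.7% and 56.3% (51.6 to 60.8), so Psmb10 did not share in the high cDC1 values of Psmb8 and Psmb9.

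**Figure D2:**
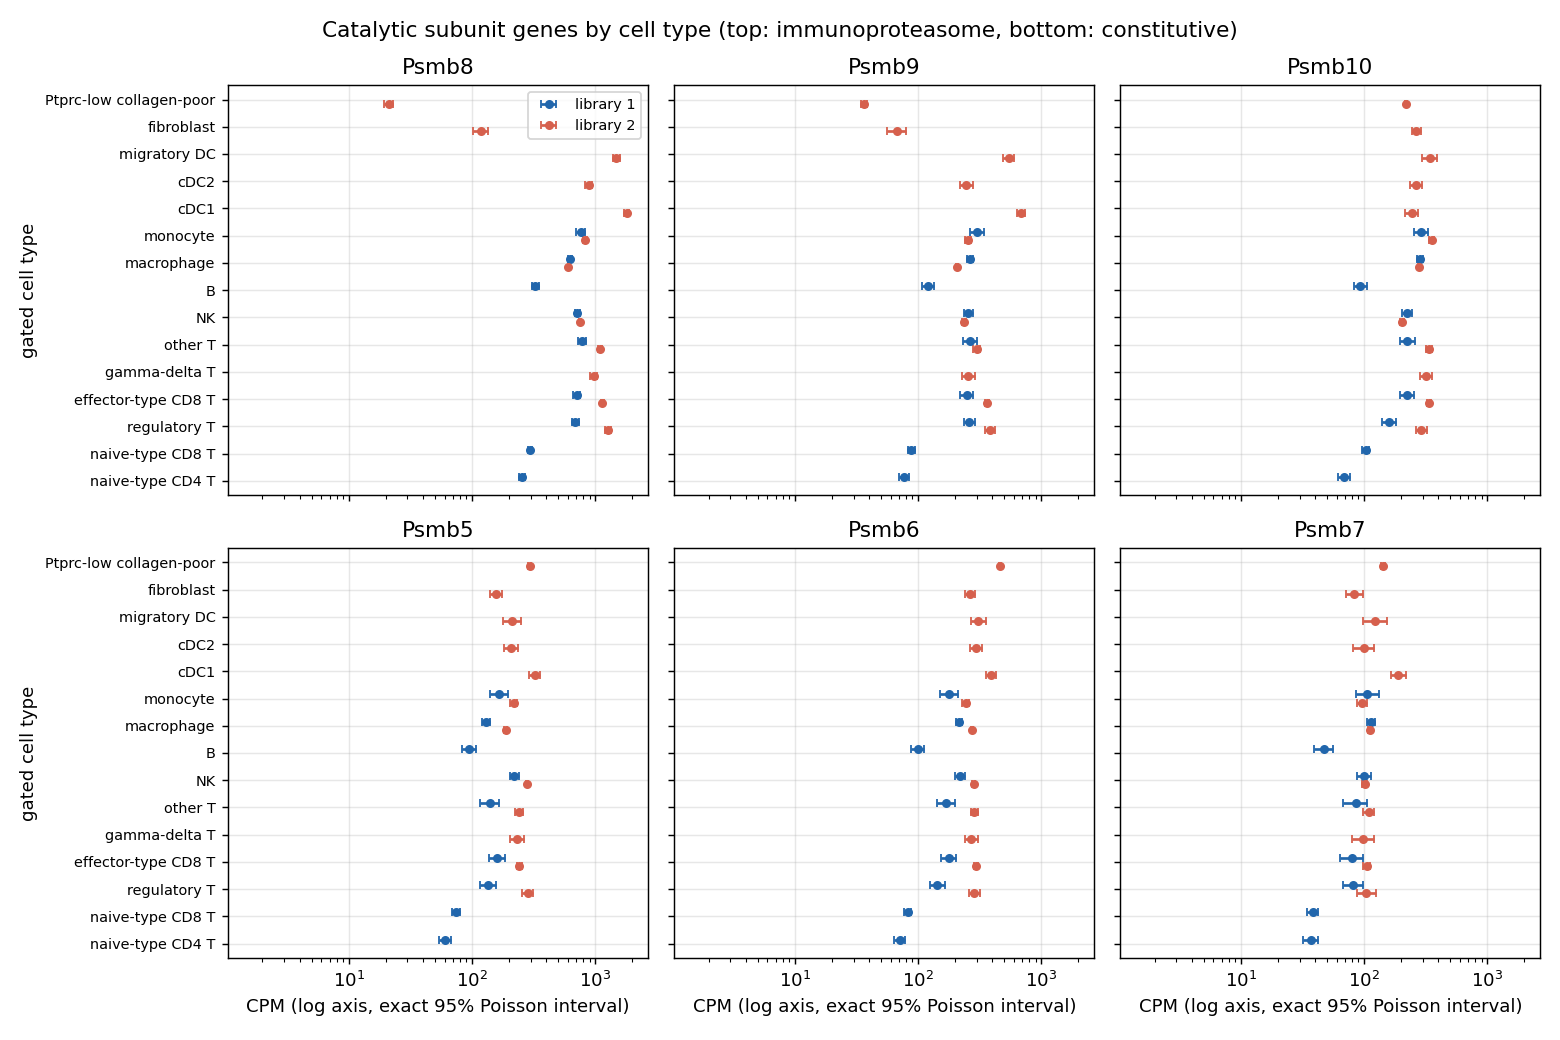
Level in CPM (x axis, log scale) of the 6 catalytic genes by gated cell type (y axis) in library 1 (blue) and library 2 (red), with exact 95% Poisson intervals. The upper row holds the immunoproteasome genes and the lower row the constitutive genes. Psmb8 and Psmb9 fall to 21.1 and 36.6 CPM in Ptprc-low collagen-poor cells, where Psmb10 stands at 218 CPM.

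The constitutive subunits were present in all types. In library 2 Psmb5 ran from 158 CPM in fibroblasts to 324 CPM in cDC1, Psmb6 from 244 CPM in monocytes to 464 CPM in Ptprc-low collagen-poor cells, and Psmb7 from 83.3 CPM in fibroblasts to 190 CPM in cDC1. In library 1 all 3 were lowest in naive-type CD4 T cells, at 60.6, 71.5 and 36.8 CPM. Psmb5 and Psmb6 were highest there in NK cells, at 221 and 219 CPM, and Psmb7 in macrophages, at 113 CPM.

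A comparison of Ptprc-low collagen-poor cells with macrophages of library 2, chosen after the data were seen, covers the whole complex. A gene counts as past the 2-fold limit here when its levels differ at least 2-fold and the interval of the ratio excludes 1.5-fold, among genes with at least 100 UMIs over both groups. Of 46 proteasome genes with that many UMIs, 8 were higher in the Ptprc-low cells past the limit, against 24.6% of 11251 genes, and 2 were lower, against 25.3%. The 2 lower genes were Psmb8, 28.8-fold lower (log2 ratio -4.85, interval -4.97 to -4.73), and Psmb9, 5.66-fold lower (-2.50, -2.60 to -2.41). The remaining immunoproteasome gene, Psmb10, had a log2 ratio of -0.35. Psme1 and Psme2, the alpha and beta subunits of the 11S cap, had log2 ratios of -0.99 and -0.27. The 8 higher genes were from the rest of the particle. They included the alpha-ring gene Psma5 (1.41), the beta-ring gene Psmb4 (1.35) and the 20S chaperone Psmg2 (1.32). From the 19S lid came Psmd3 (1.46), Psmd7 (1.56) and Psmd12 (1.56), with the ubiquitin receptor Psmd4 (1.24) and the base chaperone Psmd5 (1.43). The median log2 ratio over the 46 genes was 0.61, and 0.04 over all genes. Both shares past the limit lie below the background of this contrast, in which 2 very different cell types are compared.

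Other genes of the pathway are read against the same background of 24.6% higher and 25.3% lower. Of 12 class I presentation genes 5 were lower past the limit in the Ptprc-low cells, with Tap1 at 29.7 against 131 CPM and B2m at 1026 against 2992 CPM, and none was higher. Of 17 measured proteasome partners 4 were higher (Txnl1, Rad23b, Ubqln2 and Ubqln4) and Fbxo7 was lower, so the share higher was near the background and the share lower was below it. Pomp, the maturation factor that both kinds of barrel need, had a log2 ratio of -0.04. Among the regulators, Nfe2l2, which encodes NRF2, was 64.6 CPM against 361 CPM (log2 ratio -2.48). The cells also differed in depth, with a median of 54247 UMIs in the Ptprc-low cells and 16390.5 in macrophages. With every cell thinned to 4000 UMIs the immunoproteasome share of the Ptprc-low cells was 31.1%, against 23.5% on all UMIs. At that depth 10 genes were again past the limit, with no share of all genes given.

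The share of cells with a UMI was also compared at that matched depth. Thinned to 4000 UMIs a cell, 5.99% of the Ptprc-low collagen-poor cells of library 2 had a Psmb8 UMI (3.95 to 8.65, exact binomial), against 41.9% before thinning. The thinned shares were 87.0% in macrophages and 31.5% in fibroblasts. For Psmb10 they were 56.9% in the Ptprc-low cells and 63.2% in macrophages. The estimated free RNA of the Ptprc-low cells, 1.49% of their UMIs, would give 9.26 CPM of Psmb8, or 43.9% of the level measured, but 8.31% of the Psmb9 level. In library 1, where only 40 such cells were found, Psmb8 stood at 151 CPM, Psmb9 at 135 CPM and Psmb10 at 240.5 CPM, and the immunoproteasome share was 38.1% (36.7 to 39.6). Psmb8 and Psmb9 were thus higher there than in the cells of library 2, and Psmb10 differed less.

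The genes of the 11S cap were highest in migratory DC and cDC1, but not in cDC2, which had 811 CPM of Psme1 and 441 CPM of Psme2. In library 2 Psme1 reached 1936 CPM in migratory DC and 1635 CPM in cDC1, and otherwise lay between 682 CPM in macrophages and 990.0 CPM in effector-type CD8 T cells among leukocytes. Psme2 reached 1893 CPM in migratory DC and 771 CPM in cDC1. Regulatory T cells were close to cDC1 in Psme2, at 712 CPM (665 to 760), and macrophages had 342 CPM. The 9 migratory DC of library 1 had 1869 CPM of Psme1 and 1755 CPM of Psme2. Psme2 has a near-identical copy, Psme2b, which matched it over 794 bases at 99.4%, so its counts could be divided between the genes.

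Migratory DC were set against macrophages of library 2, also a comparison chosen after the data were seen. Of 46 measured proteasome genes 5 were higher in migratory DC past the 2-fold limit, against 6.55% of 9704 genes, and 0 were lower, against 14.2%. These were Psme2 (log2 ratio 2.47, interval 2.39 to 2.55), Psmg4 (1.61, 1.36 to 1.85), Psme1 (1.51, 1.42 to 1.59), Psmb9 (1.40, 1.24 to 1.55) and Psmb8 (1.29, 1.19 to 1.38). All of these but Psmg4, a chaperone of 20S assembly, belong to the immunoproteasome and its cap. Psmb10 (0.29) and the constitutive Psmb5, Psmb6 and Psmb7 (0.18, 0.18 and 0.13) differed little. The median over the 46 genes was -0.02, and over all genes -0.44. Among 12 class I presentation genes Tapbpl, a peptide editor, was higher at 100.5 against 22.3 CPM. The chaperones Calr, Canx and Pdia3 were lower. Stat3 was the 1 regulator of 6 measured past the limit, at 442 against 106 CPM.

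**Figure D3:**
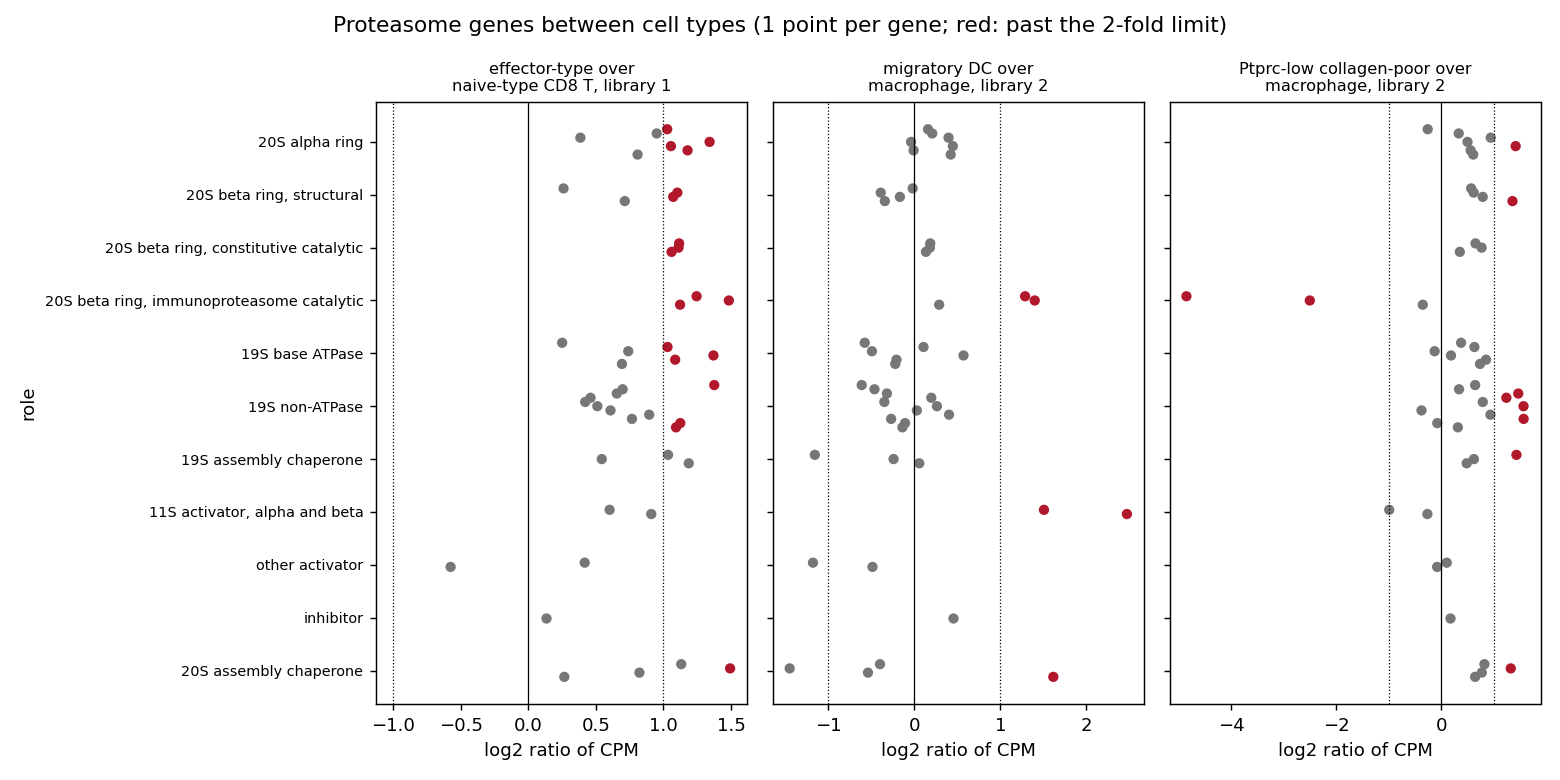
Log2 ratio of CPM (x axis) for each measured proteasome gene, grouped by role (y axis), in 3 comparisons of cell types within a library. Each point is 1 gene, red where it is past the 2-fold limit, and dotted lines mark 2-fold. Effector-type over naive-type CD8 T cells has 19 red points spread over most roles, while the other panels have 5 and 10, with Psmb8 at -4.85 in the right panel.

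Nearly the whole proteasome was higher in effector-type than in naive-type CD8 T cells. This comparison within library 1 (101 and 1227 cells) was likewise chosen after the data were seen. Of these cells 13 and 7 were cycling, with at least 10 UMIs of cell cycle genes per 10000 UMIs. The part of cycling in the comparison was not tested. Of 46 measured genes 19 were higher in effector-type cells past the 2-fold limit, against 8.48% of 6382 genes, and 0 were lower, against 2.24%. The count was 9 with cells thinned or with a stricter gate, 10 with cells weighted equally and 11 with cells of at least 10000 UMIs. No share of all genes is given under these settings, so these lower counts have no background. The interval lay above no difference for 39 of the 46, against 31.2% of all genes. The median log2 ratio was 0.93 over proteasome genes and 0.18 over all genes. Catalytic genes of both kinds shared in it. Psmb9 had a log2 ratio of 1.48 (248 against 88.5 CPM), Psmb8 of 1.25 (708 against 298 CPM) and Psmb10 of 1.12. Psmb5, Psmb6 and Psmb7 had 1.12, 1.11 and 1.06, so the immunoproteasome share moved only from 71.6% to 73.8%, with overlapping intervals.

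The other parts of the complex were raised unevenly in effector-type CD8 T cells. Past the limit were 4 of 7 alpha-ring genes, with Psma4 the highest at 1.34, and the structural beta genes Psmb2 and Psmb3. Among the 6 ATPases of the 19S base Psmc4 (1.37), Psmc5 (1.09) and Psmc2 (1.03) were past it. Of 11 other 19S subunits Psmd1 (1.38), Psmd13 (1.13) and Psmd14 (1.09), the lid deubiquitinase, were past it. The chaperone Psmg2 had the highest ratio of all, 1.49 (41.8 against 14.8 CPM). Psme1 and Psme2 had ratios of 0.60 and 0.91, and the nuclear activator Psme4 had -0.57 (interval -1.22 to 0.01). Ribosomal and mitochondrial UMIs made up 41.8% of effector-type and 50.1% of naive-type UMIs. On totals without them and without Gm42418, a gene that overlaps ribosomal RNA, 6 of 46 genes were past the limit, against 5.17% of all genes, and the median was 0.71, against -0.04. Those 6 were Psmb8, Psmb9, Psma4, Psmc4, Psmd1 and Psmg2.

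The cell types with the highest and lowest level were counted over 46 genes, leaving out Psma8 and Psmb11. In library 1 NK cells had the highest level for 20 genes, macrophages for 10 and monocytes for 7. Naive-type CD4 T cells were lowest for 31 and naive-type CD8 T cells for 9. Summed over the 7 alpha-ring genes, levels in library 1 ran from 686 CPM in naive-type CD4 T cells to 1919 CPM in monocytes. In library 2 the Ptprc-low collagen-poor cells led for 23 genes and cDC1 for 12, while fibroblasts were lowest for 15 and monocytes for 12. Psmg1 and Psmg2, which pair up as a chaperone of alpha-ring assembly, and Psmg4 were at unlike levels in monocytes. Monocytes of library 2 had 6.25 CPM of Psmg2 and 5.80 CPM of Psmg1, against 42.8 CPM of Psmg2 in NK cells. Monocytes of library 1 had 7.43 CPM of Psmg2 (6 UMIs) and 2.48 CPM of Psmg1 (2 UMIs), too few UMIs to fix a level. Their Psmg4, 69.0 CPM in library 2, was close to the 71.0 CPM of macrophages. Psme4 was lowest in NK cells of either library, with 22.2 and 19.7 CPM in libraries 1 and 2. Psma8, a testis alpha subunit, and Psmb11, the thymic cortex subunit, were all but absent, at no more than 2.96 CPM in any type with 50 cells. Psmf1, which encodes the inhibitor PI31, ran from 15.8 CPM in fibroblasts (30 UMIs) to 32.2 CPM in cDC1 (35 UMIs) in library 2.

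**Figure D4:**
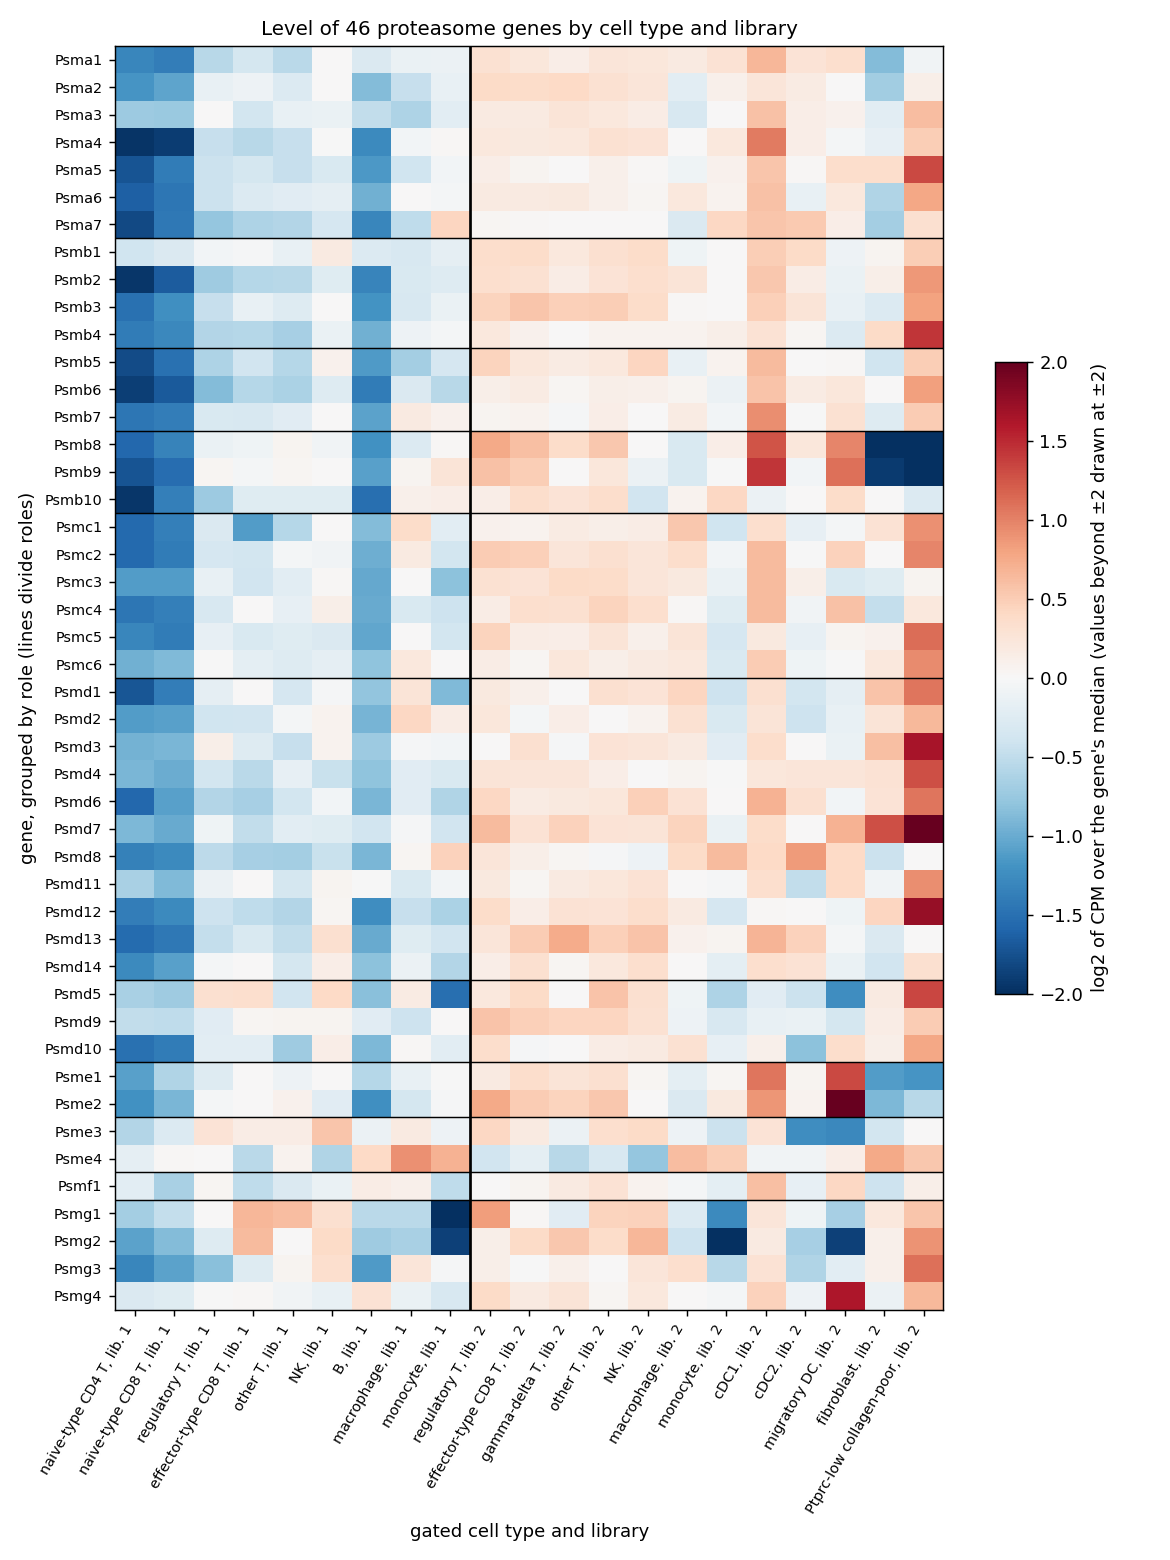
Level of 46 proteasome genes (rows, grouped by role) in each gated cell type of library 1 (left of the thick line) and library 2 (right), as log2 of CPM over the median of the gene across the columns. Naive-type T cells of library 1 are low in nearly all rows. Psmb8 and Psmb9 are low in the fibroblast and Ptprc-low collagen-poor columns, and Psme1 and Psme2 are high in migratory DC.

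Between the libraries, within a cell type, proteasome genes were mostly lower in library 1, by small ratios. The libraries also differed in how many cells of a type were cycling. Regulatory T cells had 17 of 116 in library 1 and 25 of 69 in library 2. Effector-type CD8 T cells had 13 of 101 and 245 of 558. Other T cells had 14 of 110 and 104 of 267, and NK cells 16 of 138 and 306 of 1017. Macrophages had 40 of 343 and 274 of 1950, and monocytes 0 of 79 and 2 of 542. The part of cycling in the ratios was not tested. In regulatory T cells the median log2 ratio of library 1 over library 2 was -0.63 over 39 measured proteasome genes and -0.10 over all genes. Psmb5 (-1.06, interval -1.33 to -0.81) and Psmb2 (-1.05, -1.31 to -0.80) were lower past the 2-fold limit, against 5.46% of 3353 genes, and 0 were higher, against 3.94%. Effector-type CD8 T cells had a median of -0.52 over 46 genes against -0.12, with the ATPase Psmc1 past the limit (-1.19, -1.81 to -0.63) against 5.32% of 6724 genes, and 0 higher, against 1.1%. Other T cells had -0.58 over 43 genes against -0.06. The medians in NK cells, macrophages and monocytes were -0.22, -0.22 and -0.17, against 0.12, 0.05 and 0.09 over all genes. No proteasome gene was past the limit in these 4 types in either direction. The percentages of all genes past it, higher in library 2, were 3.73% in other T cells, 1.36% in NK cells, 1.46% in macrophages and 0.792% in monocytes. Higher in library 1 they were 3.88%, 3.02%, 2.29% and 1.56%.

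Smaller differences covered many genes. The interval excluded no difference, with the lower level in library 1, for 29 of 39 genes in regulatory T cells (32.4% of all genes), 31 of 46 in effector-type CD8 T cells (24.9%) and 34 of 43 in other T cells (26.6%). The counts were 28 of 46 in NK cells (14.5%), 28 of 46 in macrophages (20.5%) and 12 of 41 in monocytes (12.6%). The opposite direction held for 4 genes in macrophages (26.2% of all genes) and 2 in monocytes (21.2%). In the other 4 types it held for 0 genes, against 23.0%, 14.3%, 20.8% and 25.4% of all genes in regulatory T, effector-type CD8 T, other T and NK cells. Ribosomal and mitochondrial UMIs were 37.7% of UMIs in regulatory T cells of library 1 and 29.0% in library 2. On totals without them and Gm42418 no proteasome gene was past the limit in regulatory T or effector-type CD8 T cells, and the medians were -0.44 and -0.31. With a stricter gate Psmb5 and Psmb2 in regulatory T cells and Psmc1 in effector-type CD8 T cells were not past the limit either. Under that gate other proteasome genes were past it in effector-type CD8 T cells. On the reduced totals 3.64% and 4.10% of all genes were lower in library 1 past the limit, and 6.83% and 2.75% higher.

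The catalytic genes differed among themselves in macrophages and NK cells. In macrophages the log2 ratios of Psmb8, Psmb9 and Psmb10 were 0.04 (interval -0.01 to 0.09), 0.35 (0.27 to 0.43) and 0.03 (-0.05 to 0.10). Those of Psmb5 and Psmb6 were -0.53 (-0.64 to -0.42) and -0.35 (-0.43 to -0.26), and that of Psmb7 was 0.02. In NK cells Psmb8, Psmb9 and Psmb10 had -0.07, 0.11 and 0.14 against -0.34, -0.37 and -0.01 for Psmb5, Psmb6 and Psmb7. Psmb7 thus lay with the immunoproteasome genes in both types, and no difference between the 2 sets was tested. The 12 class I presentation genes had a median of 0.51 in macrophages and 0.53 in NK cells, with Tap1 at 0.76 and 0.55. The medians over all genes in these 2 types are given above. Of 18 interferon gamma response genes 5 were higher past the limit in macrophages of library 1, against 2.29% of 9953 genes. Among them were Cxcl9 (711.5 against 195 CPM) and Ciita (61.9 against 5.81 CPM). A link between these genes and the catalytic ratios was not tested. In T cells genes of both kinds had negative ratios, at -0.89 for Psmb8 and -1.06 for Psmb5 in regulatory T cells and at -0.70 and -0.60 in effector-type CD8 T cells.

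Within a cell type the immunoproteasome share moved with interferon gamma response genes. Cells of a type were divided into tertiles by the summed UMIs of 18 such genes, none of them a proteasome gene, per UMI of the cell. These tertiles are ranges of a score and not cell types. In macrophages of library 2 the share was 57.3% in the lowest tertile, 64.9% in the middle and 73.3% in the highest, with 650 cells in each, and 169 of the 1950 cells lay near the upper boundary. Psmb8 was 487, 573 and 786 CPM over the tertiles, Psmb9 145, 191 and 299.6 CPM and Psmb10 195, 253 and 406 CPM. Psmb5 was 203, 184 and 172 CPM, Psmb6 298, 257 and 260 CPM and Psmb7 115, 108 and 112 CPM. The immunoproteasome genes were thus higher with the score, while of the constitutive genes only Psmb5 fell at each step. Psme1 was 544, 666 and 862 CPM, whereas Psme3, the nuclear activator, was 35.3, 31.6 and 33.5 CPM. Median depth ran from 17544 UMIs in the lowest tertile to 15206.5 in the highest.

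The order lowest, middle, highest held in most other types. In macrophages of library 1 the shares were 66.7%, 72.4% and 75.6%. Monocytes of library 2 had 63.8%, 73.2% and 77.0%. Effector-type CD8 T cells had 67.7%, 72.4% and 82.8% in library 1 and 69.3%, 74.3% and 78.5% in library 2. B cells of library 1 had 62.6%, 69.7% and 75.2%. NK cells had the smallest change among types of library 2, with 61.5%, 65.0% and 67.3%, while their median depth went from 20987 to 12111 UMIs. In library 1 NK cells had 65.6%, 72.6% and 70.0%, the 1 case of 15 in which the highest tertile did not have the highest share. The Ptprc-low collagen-poor cells of library 2 had 13.7%, 22.5% and 36.3%. Psmb10 made most of that difference, at 120, 207 and 368 CPM, with Psmb9 at 14.3, 41.0 and 61.5 CPM and Psmb8 at 14.4, 23.3 and 27.3 CPM. Median depth fell with the score in these cells, from 66398 to 42309 UMIs, and its part was not tested.

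**Figure D5:**
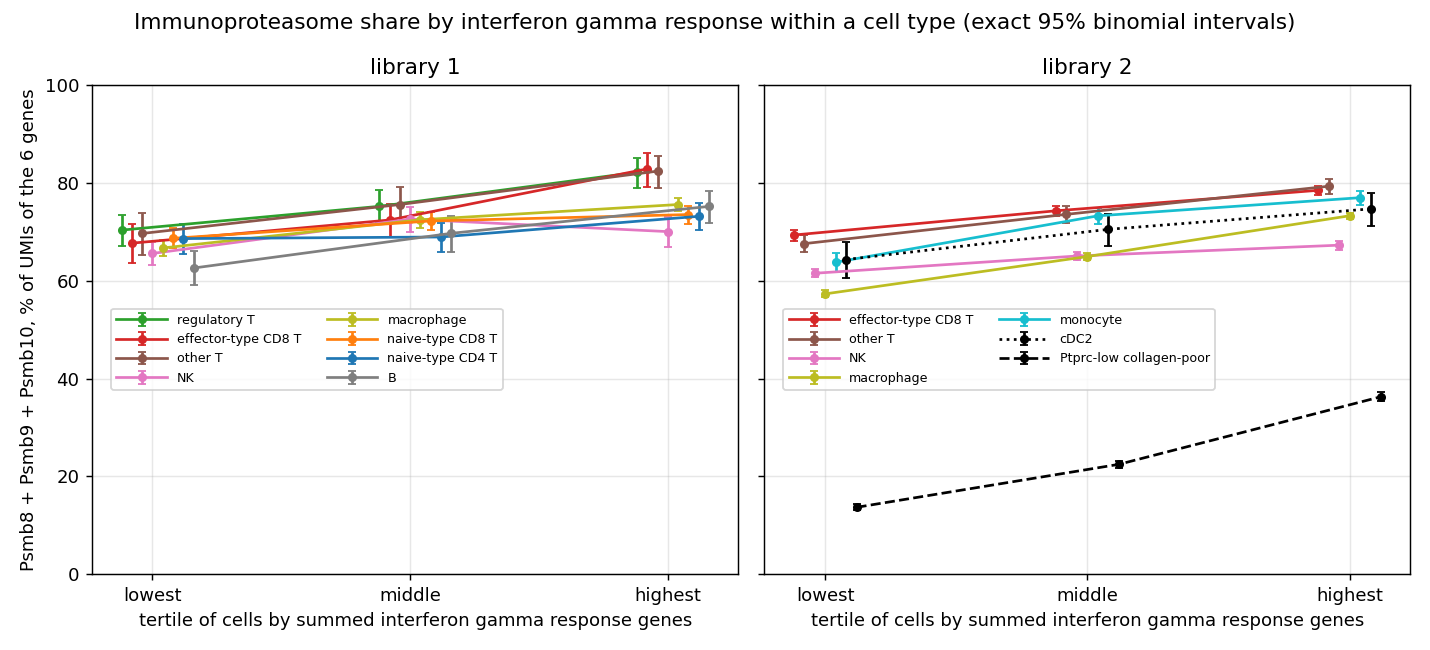
Immunoproteasome share (y axis, %) in cells of each type divided into tertiles by summed interferon gamma response genes (x axis), in library 1 (left) and library 2 (right), with exact 95% binomial intervals. In macrophages of library 2 the share goes from 57.3% to 73.3%, and in Ptprc-low collagen-poor cells from 13.7% to 36.3%.

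Counted on all UMIs, cycling cells had slightly more of many proteasome transcripts, and of most in 3 of 5 cell types, and less Psme1. Cells of library 2 with at least 10 UMIs of 10 cell cycle genes per 10000 UMIs were set against those with under 2. The comparison could be made in 5 types with at least 50 cells on each side. The interval lay above no difference for 38 of 46 proteasome genes in NK cells (29.2% of all genes), 32 of 46 in macrophages (29.5%) and 23 of 46 in effector-type CD8 T cells (22.4%). It did so for 16 of 41 in other T cells (24.5%) and 38 of 46 in the Ptprc-low collagen-poor cells (32.3%). The lower direction held for 1, 5, 1, 2 and 6 genes in the same order, against 19%, 24.8%, 17.8%, 20.1% and 39.4% of all genes. Thinning cells to 4000 UMIs leaves fewer UMIs to count. The higher counts were then 19 in NK cells, 10 in macrophages, 9 in effector-type CD8 T cells, 5 in other T cells and 29 in the Ptprc-low cells. No share of all genes is given for thinned cells, so whether proteasome genes stand out at that depth cannot be read from these counts. The ratios were small, with medians of 0.31, 0.18, 0.20, 0.25 and 0.53.

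ATPases of the 19S base were among the most regular. All 6 had intervals above no difference in NK cells, macrophages and Ptprc-low collagen-poor cells, and 5 of 6 did in effector-type CD8 T cells and in other T cells. Psmg2 was past the 2-fold limit in cycling macrophages (log2 ratio 1.16, 36.7 against 16.4 CPM), against 7.16% of 9409 genes. It had 1.01 in effector-type CD8 T cells and 0.50 in NK cells. Psme3 was past the limit in the Ptprc-low cells (1.15, 44.5 against 20.1 CPM), against 8.79% of 9276 genes.

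Psme1 went the other way in all 5 types, and Psmb10 in some. Psme1 had log2 ratios of -0.30 in NK cells, -0.33 in macrophages, -0.16 in effector-type CD8 T cells, -0.13 in other T cells and -0.68 in the Ptprc-low cells, each with an interval below 0. Psmb10 was lower in cycling macrophages (-0.30, interval -0.39 to -0.22) and other T cells (-0.38, -0.57 to -0.20). In effector-type CD8 T and NK cells its intervals, -0.20 to 0.05 and -0.16 to 0.04, included no difference. Psmb8 and Psmb9 were instead slightly higher in cycling NK cells (0.16 and 0.42), macrophages (0.09 and 0.12) and effector-type CD8 T cells (0.13 and 0.19), each with an interval above 0. In cycling Ptprc-low cells all 3 immunoproteasome genes were lower, with Psmb8 past the limit at -1.33 (14.3 against 35.8 CPM), against 10.0% of all genes, Psmb10 at -0.85 and Psmb9 at -0.54. Of 17 measured interferon gamma response genes 14 were lower past the limit in the same cells. In cycling macrophages 17 of 18 such genes had intervals below no difference, so cycling and interferon response differed together and their parts cannot be told apart here.

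Genes outside the complex with the most similar order of cell types were found by Spearman correlation of levels over 9 types in library 1 and 12 in library 2, among 3922 genes. For the summed level of Psmb8, Psmb9 and Psmb10 these were Rab8a (rho 0.98 and 0.83), Cd274 (0.83 and 0.81), which encodes PD-L1, Dbnl (0.78 and 0.88), Nfkbib, Tagln2, Sp110, Acadl, Crip1, Rbm42 and Dnajc8. For Psmb5, Psmb6 and Psmb7 they included Fdps (0.92 and 0.79), an enzyme of isoprenoid synthesis, Smu1 (0.87 and 0.79), Grpel1, Glod4, Pfdn4, Ccdc124, Cox7c, Eif4h and Snrpd1. The values describe types that share a library and its depth.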

How the data were processed

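The deposited file is a single matrix for both libraries, in which the authors give raw UMI counts for 31053 genes in 12514 barcodes. Per the submitters' processing notes, Cell Ranger and mm10 were used, and the file headers give software version 3.1.0. The sources used here state no annotation, strand setting, cell calling or subsampling. The proteasome genes and all gene lists were chosen with earlier results of these data known.

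Cells needed 200 genes, 500 UMIs and at most 10% mitochondrial UMIs. Scrublet's automatic threshold marked 0 barcodes, so the 5% with the highest scores (266 and 360) were removed. Cells were gated on UMIs of 144 markers in 23 lists per 10000 UMIs, without proteasome genes. Gates are ranges: 17 and 113 cells lay within 20% of the macrophage limit. UMIs were summed per type and library and scaled to CPM, with exact Poisson, Clopper-Pearson and conditional binomial intervals (scipy 1.17.1, scanpy 1.11.5). UMIs of 1 cell are not independent samples, so the intervals are too narrow for differences between tumours. Free RNA was estimated from T cell or macrophage markers in types that should lack them. Because gates cap those markers, it can be too low. Genes with under 100 UMIs in a comparison were not counted as measured. Any proteasome gene or listed gene (98 of 102 found) could be named. Positions are GRCm38 (mm10), from GENCODE M21. Ratios and intervals were tested on simulated data. Alternatives covered cell filters, gates, scaling, thinning, free RNA and the fold limit.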

Additional observations from a re-analysis of the deposited data

How the results depend on the processing

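For single genes between the libraries, in 6 cell types and under the alternatives other than the 1.5-fold limit and the UMI minimum, 2414 ratios kept their side of the 2-fold limit, 19 moved past it and 12 fell back. Of the counts for a comparison 143 stayed within 1.5 times the value reported and 30 did not. The immunoproteasome share was higher in library 1 in 4 or 5 of 6 types under every alternative that gave a value. Clusters gave no regulatory T cluster and so no such count. No paired analysis was possible because each group is 1 library and nothing pairs cells.

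Counts past the limit moved most. With a 1.5-fold limit and an interval that excludes no difference they were 22 for regulatory T cells between libraries, 18 for effector-type CD8 T, 19 for other T, 1 for macrophages and 2 for monocytes. The same limit gave 27 for Ptprc-low cells over macrophages, 8 for migratory DC over macrophages and 34 for effector-type over naive-type CD8 T cells. Between libraries, regulatory T cells had 5 with cells thinned, 1 with cells of at least 10000 UMIs, and 0 with a stricter gate and on totals without ribosomal, mitochondrial and Gm42418 UMIs. Effector-type CD8 T cells had 3 thinned, 2 with cells weighted equally, 2 with a stricter gate, and 0 with clusters and on those totals. Other T cells had 3 thinned, 3 weighted equally and 1 at a mitochondrial limit of 5%. Effector-type over naive-type CD8 T cells gave 9 thinned, 11 with cells of at least 10000 UMIs, 10 weighted equally, 9 with a stricter gate and 6 on those totals. The counts for cycling cells are of intervals that lie above no difference, not of 2-fold differences. There thinning, which leaves fewer UMIs, gave 19 for NK cells, 9 for effector-type CD8 T cells, 10 for macrophages and 5 for other T cells. Other T cells had 9 with cells of at least 10000 UMIs. Beyond fewer UMIs or cells, the cause was not tested. Except on the totals without ribosomal, mitochondrial and Gm42418 UMIs, no share of all genes is given under these alternatives. A looser limit also lets more genes of any kind pass. These counts are therefore not read as an excess of proteasome genes.

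The share of Ptprc-low collagen-poor cells was 31.1% thinned and 20.7% with a stricter gate, against 23.5%. Depth limits the types under 50 cells and chaperone genes of a few CPM.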
